A study of Mus musculus and Rattus norvegicus with 28 samples.

Results

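The mitochondrial respiratory chain and the ATP synthase were examined through their genes in cardiomyocytes, the contracting muscle cells of the heart, around birth. Members were taken by gene name, as names starting with Nduf, Uqcr, Cox5 or Atp5, the names Sdha to Sdhd, Cox6c, Cox7b and Cox7c, and the mitochondrially encoded subunits. Names ending in -ps were dropped. In mouse, 97 of 55450 listed genes carried such a name and 13 of them are mitochondrially encoded. At FPKM (aligned fragments scaled to transcript length and to the size of the library) of at least 1 in 2 libraries, 81 of the 97 were kept among 13979 tested genes. In rat, 96 of 32623 listed genes carried such a name and 81 were kept among 14045 tested genes.

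Mouse cardiomyocytes of the strain C57BL/6 came from left ventricles at embryonic day 18.5 (E18.5) and at postnatal days 1, 3 and 7 (P1, P3 and P7), with 2 RNA-seq and 2 ATAC-seq libraries per age. ATAC-seq marks accessible chromatin. The mice were wild-type and of both sexes, and no treatment is named for them. Rat cells were neonatal left ventricular cardiomyocytes of Sprague Dawley pups of both sexes at P1, plated and then given the solvent DMSO or 100 nM trichostatin A (TSA), an inhibitor of histone deacetylases, with 3 RNA-seq libraries each. Cells of both species were obtained by enzyme digestion and preplating, in which fast-adhering non-muscle cells are removed, so a library is a cell preparation and not a sorted population. The sources used here do not say how many animals stand behind a library, and p-values measure the spread between these libraries only.

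Complex I, or NADH dehydrogenase, and complex II, or succinate dehydrogenase, pass electrons to coenzyme Q. Complex III passes them on to cytochrome c and complex IV to oxygen, and the proton gradient built on the way drives the ATP synthase. Working heart muscle is among the tissues richest in these complexes, and the heart is known to turn from glycolysis toward fatty acid oxidation after birth.

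Before the results, the make-up of the libraries has to be given, because it moved with age. The 16 cardiomyocyte markers summed to 32300 and 42000 FPKM in the E18.5 pair, to 16000 and 25300 in the P1 pair, to 10600 and 8700 in the P3 pair and to 2760 and 1240 in the P7 pair. All 16 fell from E18.5 to P7, with a median log2 fold change of -4.26. All 12 fibroblast markers rose, with a median of 2.84, and their sums went from 554 and 546 FPKM at E18.5 to 3830 and 4670 at P7. Of 10 smooth muscle and pericyte markers, 5 rose and 4 fell by P7, and their sums were 431 and 560 FPKM at E18.5 and 1670 and 1880 at P7. Erythroid markers summed to 29100 and 35400 FPKM at E18.5 and to between 4.7 and 41 in the later libraries. Of 12 endothelial markers 3 rose and 3 fell by P7, and of 10 macrophage markers 4 rose and 4 fell. No cardiomyocyte or fibroblast marker was at 0 in any mouse library. In these bulk samples fewer cardiomyocytes and less RNA per cardiomyocyte cannot be told apart. The authors reported that the isolated cells were of high purity, also at P7, from staining for cardiac troponin T. They also reported from ATAC-seq that promoters of the endothelial marker Pecam1 and the fibroblast marker Dcn were closed in these cells. In P7 whole heart the same promoters carried the histone mark H3K27ac. Those are measures of protein and of chromatin, while the markers here are RNA. The shallowest mouse library had 29.32 M aligned reads and the deepest 37.5 M, and the rat libraries lay between 28.21 M and 38.49 M.

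The starts of the member genes were first described in the ATAC-seq peak lists and in the reference sequence. A promoter peak is a deposited peak whose midpoint lies within 2.5 kb of a transcript start. Of the 81 mouse members, 26 had one in all 8 ATAC-seq libraries, against 36.4% of all tested genes. Of the others, 25 had one in 7 libraries, 12 in 6 and 11 in 5, against 19.2%, 12.1% and 9.21% of tested genes. The member without one in any library was Ndufb4c, a copy-like locus, against 7.38% of tested genes. The count per library was 66 and 50 in the E18.5 pair, 64 and 34 in the P1 pair, 80 and 78 in the P3 pair and 77 and 78 in the P7 pair. The share of members was close to that of all tested genes in the second E18.5 library (61.7% against 62.3%) and the second P1 library (42.0% against 42.9%), and it ran from 79.0% to 98.8%, against 66.9% to 91.5%, in the other 6. The lists held 13149 to 95257 peaks and the lower counts stand in libraries with 29281 peaks or fewer, so these counts were not compared between ages. Without the second P1 library, 45 members had a peak in all the other libraries. When every list was cut to 13149 peaks by the authors' score, 20 members had a peak in all 8 libraries and 8 in none. The counts under these alternatives are not set against all tested genes, so they do not compare members with other genes.

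Promoter sequences were taken from RefSeq on GRCm38.p6, from 250 bases before to 50 after a start. Of the 81 members, 67 had an entry, with 72 windows. Among the members without one were Atp5a1, Atp5mpl, Cox6c, Ndufa2, Ndufa4l2, Ndufaf6, Ndufb4c, Ndufb9, Ndufs1, Sdhc, Uqcrb, Uqcrc2 and Uqcrq. Short cores of motifs were searched on both strands. The core CCGGAAG of ETS factors such as GABP stood in 15 of the 72 windows (20.8%), against 8.86% of 32851 windows of all genes. The core GCATGCG of NRF1 stood in 12 (16.7%, against 3.58%) and the YY1 core AAGATGGC in 11 (15.3%, against 2.75%). The ERR core AAGGTCA stood in 8 (11.1%, against 4.72%), the SP core GGGCGG in 31 (43.1%, against 35.7%) and the AP1 core TGANTCA in 7 (9.72%, against 7.81%). The MEF2 consensus, a motif of muscle genes, stood in none of the 72 and in 3.19% of all windows. Mean GC content was 58.3% in the members' windows and 53.8% in all windows. A match is a match of letters and not a binding site.

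Stretches before the start that overlap no annotated exon are shown for 7 members, in lower case with the searched cores in capitals. The first 3 are the genes of ATP synthase subunit c, which differed in their change and carry no core, no core and 1 ERR core (as TGACCTT on the other strand) in the stretch shown. Sdhd and Uqcrh carry the ETS core as CTTCCGG. Ndufa6 carries 1 NRF1 core, and Ndufa11 carries the palindrome CGCATGCG, which holds the NRF1 core on both strands.
Atp5g1, chr11:96075671-96075781, minus strand: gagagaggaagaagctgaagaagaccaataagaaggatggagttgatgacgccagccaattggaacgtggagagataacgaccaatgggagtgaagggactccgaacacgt
Atp5g2, chr15:102671128-102671197, minus strand: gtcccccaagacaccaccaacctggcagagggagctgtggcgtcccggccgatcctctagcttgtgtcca
Atp5g3, chr2:73911327-73911476, minus strand: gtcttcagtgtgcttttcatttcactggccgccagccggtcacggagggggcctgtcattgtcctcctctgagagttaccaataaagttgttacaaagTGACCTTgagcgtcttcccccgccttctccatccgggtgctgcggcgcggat
Sdhd, chr9:50603850-50603909, minus strand: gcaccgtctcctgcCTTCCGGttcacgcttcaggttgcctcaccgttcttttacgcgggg
Uqcrh, chr4:116075072-116075220, minus strand: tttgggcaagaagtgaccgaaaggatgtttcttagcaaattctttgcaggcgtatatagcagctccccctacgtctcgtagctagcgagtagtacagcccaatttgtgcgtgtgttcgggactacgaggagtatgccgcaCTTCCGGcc
Ndufa6, chr15:82354323-82354441, minus strand: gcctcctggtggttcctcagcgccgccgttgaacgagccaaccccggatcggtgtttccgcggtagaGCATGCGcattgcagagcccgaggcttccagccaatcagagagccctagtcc
Ndufa11, chr17:56717686-56717761, plus strand: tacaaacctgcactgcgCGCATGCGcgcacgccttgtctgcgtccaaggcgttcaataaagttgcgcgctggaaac
In the 300-base windows as a whole, Atp5g2 also held the NRF1 and SP cores, Atp5g1 the AP1 core, Sdhd the ERR and SP cores, Uqcrh the AP1 core and Ndufa6 the SP core. Peaks near the starts of Atp5g1, Atp5g2, Sdhd and Ndufa6 were in all 8 lists, those of Uqcrh and Ndufa11 in 7 and that of Atp5g3 in 6.

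In mouse, transcripts of the respiratory chain and of the ATP synthase were lower at each later age. At E18.5 the members' mean FPKM ranged from 6.2 (Ndufb4c) to 2980 (Atp5b) with a median of 238, against a median of 7.29 over all tested genes. The members' median was then 132, 104 and 72.8 at the later ages. Of the 81 members, 59 stood among the 500 genes with the highest mean FPKM at E18.5, and then 42, 32 and 16 at the later ages. All 97 names together took 4.79% and 5.56% of TPM (levels scaled to the same total in every library) in the E18.5 pair, 3.08% and 3.63% in the P1 pair, 2.68% and 2.36% in the P3 pair and 1.75% and 1.5% in the P7 pair. These pairs did not overlap between ages. Means were lower at every step for 75 of 81 members, against 15.6% of all tested genes. The exceptions were Ndufa4l2, Ndufb4c and the assembly factors Ndufaf2, Ndufaf3, Ndufaf4 and Ndufaf8.

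Fold changes are on the log2(FPKM + 1) scale, tested with limma over all tested genes with Benjamini-Hochberg adjustment, and a call needed an adjusted p below 0.05. From E18.5 to P1, 72 members fell and 0 rose, against 14.4% of tested genes that fell and 26.9% that rose. Of these, 17 fell more than 2-fold, against 6.06%. The median was -0.82, against 0.15 over all tested genes. By P3, 75 had fallen, 62 of them more than 2-fold, against 17.9% and 8.88% of tested genes, and 0 had risen, against 31%, with a median of -1.19, against 0.16. By P7, 79 had fallen, 70 of them more than 2-fold, against 22.6% and 12.3%, and 0 had risen, against 32.6%, with a median of -1.80, against 0.14. This median is 3.48-fold lower, and the members ranged from -3.12 to 1.23. Between P1 and P7, 70 fell and 1 rose, against 10% and 8.2% of tested genes. More than 2-fold, 35 fell and 1 rose, against 5.46% and 3.45%, and the median was -0.97, against 0.00 over all tested genes. These fold changes use no E18.5 library, but the filter and the spread in the fit do. With only the 4 libraries of P1 and P7 in the fit, 69 fell and 0 rose, against 9.15% and 7.8% of tested genes.

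The falls at P1 depended on single libraries and on scaling. Where a library is left out, its group holds 1 library, so only medians are given here. The members' P1 median was -0.98 without the first and -0.71 without the second E18.5 library, against 0.20 and 0.15 over all tested genes. It was -0.72 without the first and -0.96 without the second P1 library, against 0.17 and 0.14. For P7 against P1, the members' median was -1.03 and -0.87 without the first and the second P1 library. Over all tested genes it was 0.00 and -0.01. Without the first and the second P7 library it was -1.07 and -0.82 in the members, against -0.02 and 0.00. TPM moved the median of all tested genes by 0.23 to 0.25 in the comparisons with E18.5. Scaling to a total without globin and mitochondrially encoded genes moved it by 0.12 to 0.15, and median-of-ratios factors by -0.12 to -0.10. That reduced total is set equal in all libraries, as in TPM, so its shift is not that of leaving out globin alone. Under these 3 scalings between 62 and 74 members fell by P1, 72 to 76 by P3 and 77 to 79 by P7, and 0 rose. The share of all tested genes that fell by P1 was 9.75% with TPM, 11.3% with the reduced total and 18.1% with median-of-ratios factors, and that of genes that rose was 39.1%, 34.1% and 21.5%. In the same order, 12.8%, 14.5% and 21.8% of tested genes fell by P3, and 16.8%, 18.5% and 25.7% by P7. Those that rose made up 42%, 37.7% and 25.2% by P3, and 42.7%, 39.1% and 28.4% by P7. The counts past 2-fold moved more, to 1, 5 and 35 at P1 with TPM, with the reduced total and with median-of-ratios factors, and to 35 at P3 with TPM. With both P7 libraries left out of the fit, 72 fell by P1 and 75 by P3, against 13.4% and 16.9% of tested genes.

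**Figure D1:**
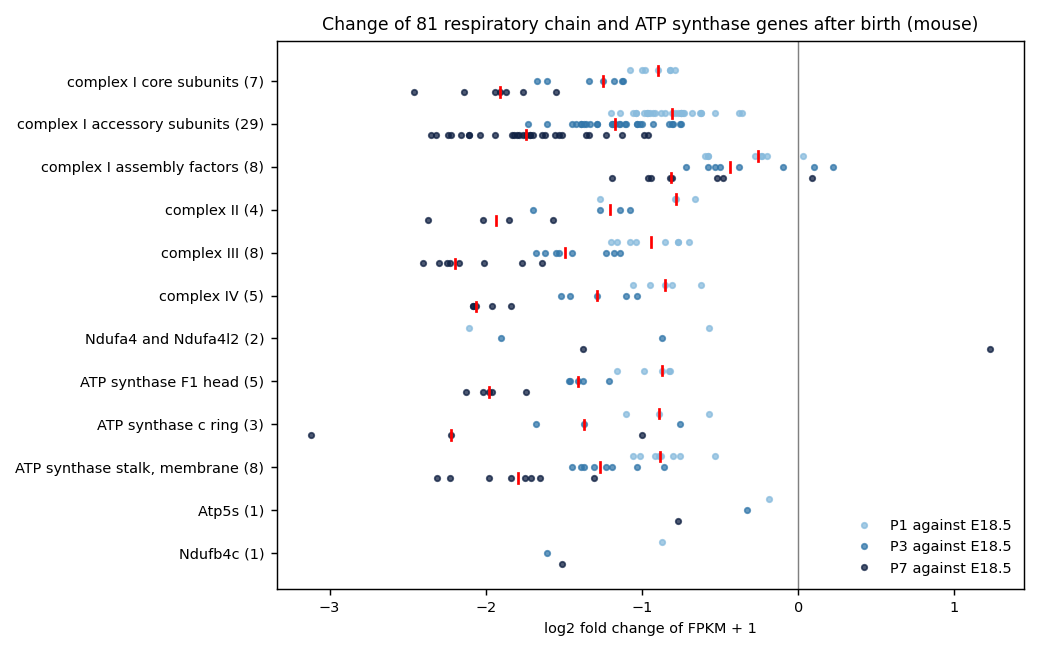
Log2 fold change of FPKM + 1 (x axis) for each of the 81 mouse members, grouped by complex with the number of genes in brackets. Points are genes, colours the comparison of P1, P3 or P7 with E18.5, and red bars group medians. The medians shift to lower values with age in complexes I to IV and the ATP synthase, while the assembly factors lie nearer 0 and Ndufa4l2 stands alone at 1.23 for P7.

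The fall can be set beside the cardiomyocyte markers library by library. Summed FPKM of the members divided by that of the cardiomyocyte markers was 0.787 and 0.731 in the E18.5 pair, 0.896 and 0.651 in the P1 pair, 1.17 and 1.21 in the P3 pair and 2.9 and 5.37 in the P7 pair. Relative to these markers the members were thus higher at P7, the opposite direction of their FPKM. The members' sum is over all cells of a library, so this ratio is not a level per cardiomyocyte. The ratio of cardiomyocyte to fibroblast markers was 58.4 and 76.8 in the E18.5 pair, 9.16 and 12.6 in the P1 pair, 4.73 and 3.67 in the P3 pair and 0.72 and 0.265 in the P7 pair. The part of the cell mixture in the fall of the members was not tested.

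**Figure D2:**
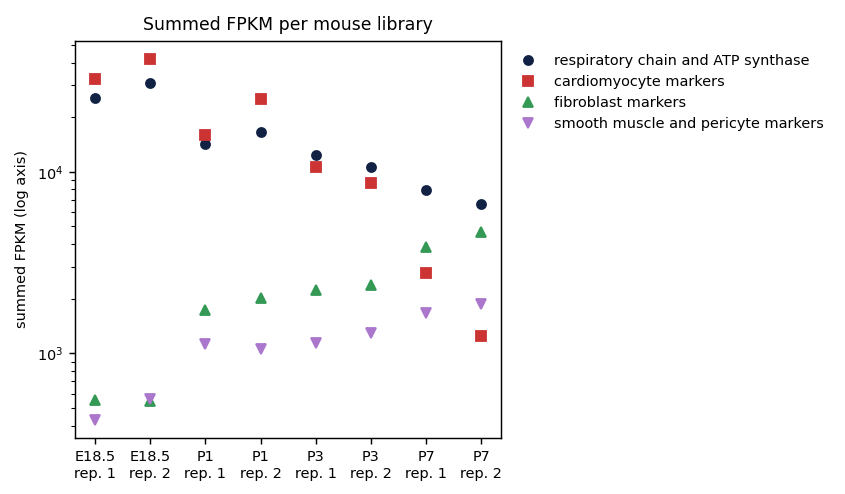
Summed FPKM (y axis, log scale) in the 8 mouse libraries (x axis) of the members and of cardiomyocyte, fibroblast, and smooth muscle and pericyte markers. The members drop from 25400 and 30700 at E18.5 to 7990 and 6670 at P7, less steeply than the cardiomyocyte markers, while fibroblast markers climb.

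Complex I takes electrons from NADH through a core of flavin and iron-sulfur subunits. All 7 nuclear core subunits fell by P1 and by P7, with a P7 median of -1.91. Ndufv1, which binds NADH and the flavin, is at chr19:4007384-4012806 on mm10. Its FPKM was 137 and 183 in the E18.5 pair, 68.5 and 89.9 in the P1 pair, 53.1 and 49.6 in the P3 pair and 31.3 and 25 in the P7 pair. The E18.5 libraries were the highest and the P7 libraries the lowest, with no overlap. Ndufv1 had the second largest fall of all members, by 2.46 ± 0.19 (log2, SE, adjusted p = 3.58e-05). Ndufs1, which carries iron-sulfur clusters, had 171 and 194 FPKM in the E18.5 pair, 78 and 94.2 in the P1 pair, 59.3 and 53.9 in the P3 pair and 43.9 and 37.7 in the P7 pair. It fell by 2.14 ± 0.14 by P7 (adjusted p = 2.25e-05).

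The accessory subunits surround this core and are needed for assembly and stability. Of 29, 27 fell by P1 and 29 by P7, 27 of these more than 2-fold, with a median of -1.74. The largest falls were those of Ndufb9 (2.35 ± 0.19 lower on the log2 scale, from 362 and 465 FPKM to 91.2 and 69.6) and Ndufb8 (2.32 ± 0.17 lower, from 332 and 403 to 80.5 and 65.1). The smallest were those of Ndufa7 (by 0.96 ± 0.15) and Ndufb3 (by 0.99 ± 0.15), which both fell (adjusted p = 0.00101 and 0.000819). Ndufa7 had 182 and 221 FPKM at E18.5 and 110 and 96.5 at P7. It was the accessory subunit with the highest mean at P7, while Ndufb9 was so at E18.5. Ndufa11 and Ndufb6 did not pass the test at P1, with log2 fold changes of -0.36 and -0.38.

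The Ndufaf proteins build complex I but are not part of it. Of 8 genes, 3 fell by P1 and 7 by P7, 1 of them more than 2-fold, with a P7 median of -0.81. Their mean FPKM at E18.5 ran from 11.8 to 25.9, against 45.7 to 413 for accessory subunits. Ndufaf2 had 18.3 and 24.5 FPKM in the E18.5 pair, 23.4 and 20 in the P1 pair, 26 and 23.7 in the P3 pair and 19.7 and 26 in the P7 pair. The ages overlapped and the P7 log2 fold change was 0.09 ± 0.19 (adjusted p = 0.7). Ndufaf4 had 13.1 and 10.6 FPKM in the E18.5 pair, 7.62 and 7.22 in the P1 pair, 12.2 and 13.1 in the P3 pair and 4.8 and 4.38 in the P7 pair. It was low at P1, back in the E18.5 range at P3 and lowest at P7, where it had fallen by 1.19 ± 0.15 (adjusted p = 0.000357). Ndufaf8 and Ndufaf7 fell by 0.48 ± 0.14 and 0.52 ± 0.17 by P7 (adjusted p = 0.0183 and 0.0311). Across the 81 members, those with a higher E18.5 FPKM had larger falls at P7 (Spearman's rho = -0.58). This is a description over genes of the same 4 libraries, and the E18.5 level is also the baseline of the change. Level and change are thus not independent, and the pseudocount shrinks the change of low genes.

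Complex II is also an enzyme of the tricarboxylic acid cycle and has no mitochondrially encoded subunit. All 4 genes fell by P1 and by P7, with a P7 median of -1.94. Sdha, the flavoprotein that oxidises succinate, had 300 and 374 FPKM in the E18.5 pair, 175 and 216 in the P1 pair, 141 and 135 in the P3 pair and 85.6 and 77.9 in the P7 pair. Its fall by P7 was by 2.02 ± 0.15 (adjusted p = 3.18e-05). Sdhb, the iron-sulfur subunit, had 419 and 518 FPKM in the E18.5 pair, 180 and 205 in the P1 pair, 151 and 135 in the P3 pair and 97.2 and 82.2 in the P7 pair. At P1 it showed the largest fall among members past the test, by 1.27 (adjusted p = 0.000602), and by P7 the fall was by 2.37 ± 0.15 (adjusted p = 1.8e-05). The membrane anchor Sdhc fell least, by 1.57 ± 0.14.

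All 8 complex III genes fell by P1, 4 of them more than 2-fold, and all fell by P7, with a median of -2.20. Uqcrc2, a core protein, fell most, by 2.40 ± 0.15 (adjusted p = 1.6e-05), from 444 and 502 FPKM at E18.5 to 97.2 and 81.2 at P7. Uqcrfs1, the Rieske iron-sulfur protein that hands electrons to cytochrome c1, had 380 and 483 FPKM in the E18.5 pair, 199 and 218 in the P1 pair, 162 and 134 in the P3 pair and 98 and 81.2 in the P7 pair. It fell by 2.25 ± 0.17. Uqcrc1, the other core protein, fell by 2.01 ± 0.17, from 545 and 681 FPKM to 170 and 133. Uqcrh, the hinge protein, had 491 and 529 FPKM at E18.5 and 206 and 239 at P1, a fall by 1.20 that was among the 3 largest at P1 (adjusted p = 0.000387). Uqcrq fell least by P7, by 1.64 ± 0.18.

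The 5 complex IV genes in the rule are nuclear subunits without a separate heart isoform. All 5 fell by P1 and by P7, with a median of -2.06 and the narrow range of -2.08 to -1.84. Cox5a, a nuclear subunit close to the catalytic core, had 588 and 748 FPKM in the E18.5 pair, 406 and 456 in the P1 pair, 349 and 302 in the P3 pair and 191 and 127 in the P7 pair. Its fall was by 0.62 at P1 (adjusted p = 0.0443) and by 2.08 ± 0.21 at P7 (adjusted p = 0.000107).

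**Figure D3:**
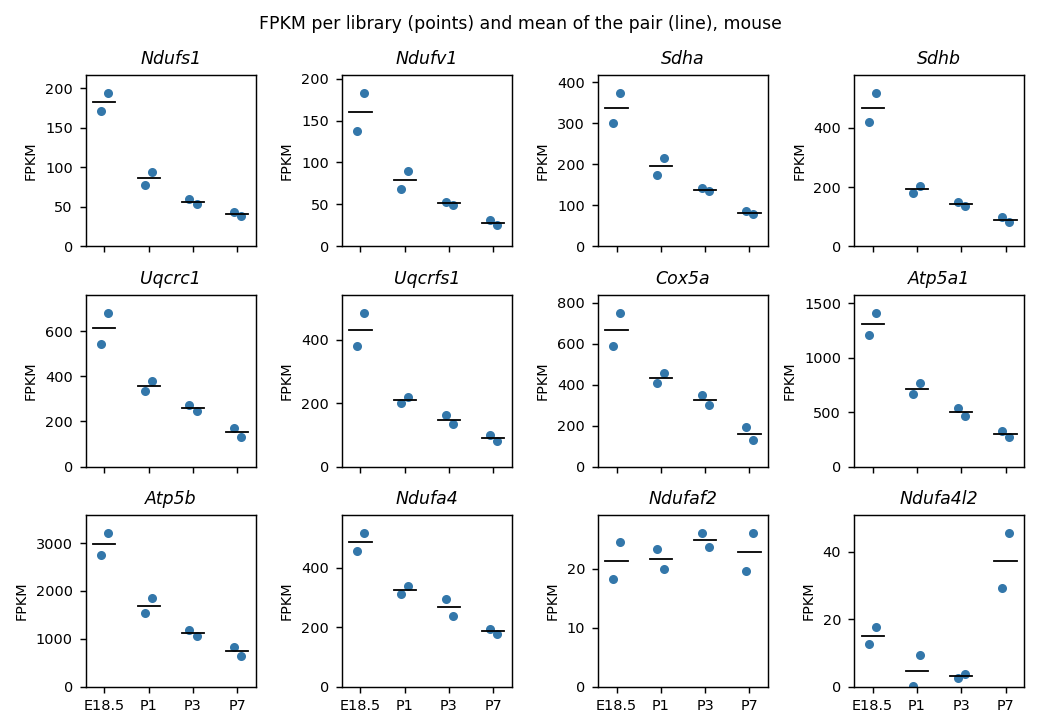
FPKM (y axis, starting at 0) by age (x axis) for 12 mouse members, with points for the 2 libraries and a line for their mean. In 10 panels the E18.5 pair is highest and the P7 pair lowest, Ndufaf2 stays between 18.3 and 26, and Ndufa4l2 is highest at P7.

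Ndufa4, first listed with complex I and now assigned to complex IV, and its paralog Ndufa4l2, known as a gene induced by low oxygen, differed. Ndufa4 had 458 and 516 FPKM in the E18.5 pair, 313 and 340 in the P1 pair, 297 and 237 in the P3 pair and 194 and 178 in the P7 pair, a fall by 1.38 ± 0.14 (adjusted p = 0.000127). Ndufa4l2, at chr10:127514967-127517154, had 12.7 and 17.6 FPKM in the E18.5 pair, 0.326 and 9.26 in the P1 pair, 2.69 and 3.92 in the P3 pair and 29.2 and 45.4 in the P7 pair. Both P7 libraries were above all others, and on the log2 scale the P1 libraries differed more from each other than any other pair. Ndufa4l2 rose from P1 to P7 by 3.34 (adjusted p = 0.0208), the one member that did. The value rested on the P1 pair, at 1.87 without the first and 4.82 without the second P1 library. This call was lost without either P7 library (adjusted p = 0.0505 without the first and 0.118 without the second), with only the P1 and P7 libraries in the fit (adjusted p = 0.068) and with no expression filter (adjusted p = 0.112). Against E18.5 its log2 fold changes were -2.11 at P1, -1.90 at P3 and 1.23 at P7 (adjusted p = 0.0605, 0.0749 and 0.211). The P1 value was -0.64 (adjusted p = 0.185) without the first P1 library and -3.59 (adjusted p = 0.000597) without the second, and it passed with median-of-ratios factors (adjusted p = 0.0495). With only the E18.5 and P7 libraries in the fit the P7 value passed (adjusted p = 0.00945). It also passed without either P1 library (adjusted p = 0.00653 and 0.00687). At P7 Ndufa4 remained the more abundant, with means of 186 and 37.3 FPKM.

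The ATP synthase has a catalytic F1 head, a rotating ring of c subunits, a stalk and membrane subunits. All 5 genes of the head fell by P1 and by P7, with a P7 median of -1.98. Atp5b, the catalytic subunit, had the highest FPKM of all members at each age, with 2760 and 3200 in the E18.5 pair, 1530 and 1860 in the P1 pair, 1180 and 1060 in the P3 pair and 833 and 640 in the P7 pair. Its fall by P7 was by 2.02 ± 0.18 (adjusted p = 5.47e-05). Atp5a1, its partner in the head, had 1210 and 1410 FPKM in the E18.5 pair, 670 and 764 in the P1 pair, 536 and 468 in the P3 pair and 324 and 275 in the P7 pair, a fall by 2.13 ± 0.15. All 8 tested stalk and membrane genes fell by P7, more than 2-fold, from Atp5k (by 2.31 ± 0.20) and Atp5o (by 2.23 ± 0.16) to Atp5l (by 1.31 ± 0.15). Atp5s, a coupling factor listed with these names, had 7.53 and 7.42 FPKM at E18.5 and 3.47 and 4.57 at P7, and fell by 0.77 ± 0.19 (adjusted p = 0.0104).

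The genes Atp5g1, Atp5g2 and Atp5g3 encode the same mature c subunit behind different targeting sequences. Atp5g1, at chr11:96068852-96075670, had 1060 and 1400 FPKM in the E18.5 pair, 522 and 621 in the P1 pair, 421 and 342 in the P3 pair and 178 and 109 in the P7 pair. Its fall by 3.12 ± 0.25 was the largest of all members (adjusted p = 3.72e-05). Atp5g2 had 389 and 457 FPKM in the E18.5 pair, 282 and 286 in the P1 pair, 261 and 236 in the P3 pair and 218 and 202 in the P7 pair, a fall by 1.00 ± 0.13 (adjusted p = 0.000312). The order of the genes turned over: at E18.5 Atp5g1 was the highest of the 3 and Atp5g2 the lowest, and at P7 Atp5g1 was the lowest. Atp5g1 made up 44.4% and 46.4% of their summed FPKM in the E18.5 pair, 39.2% and 41.1% in the P1 pair, 37.8% and 35.8% in the P3 pair and 27.2% and 21.6% in the P7 pair. Atp5g2 made up 16.3% and 15.1%, 21.2% and 18.9%, 23.4% and 24.7%, and 33.3% and 39.9%. Atp5g3 stayed between 38.5% and 40% in all 8 libraries. The shares of Atp5g1 and Atp5g2 did not overlap between E18.5 and P7. With 2 libraries against 2, a permutation test of the shares cannot pass a threshold of 0.05, so none was made.

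**Figure D4:**
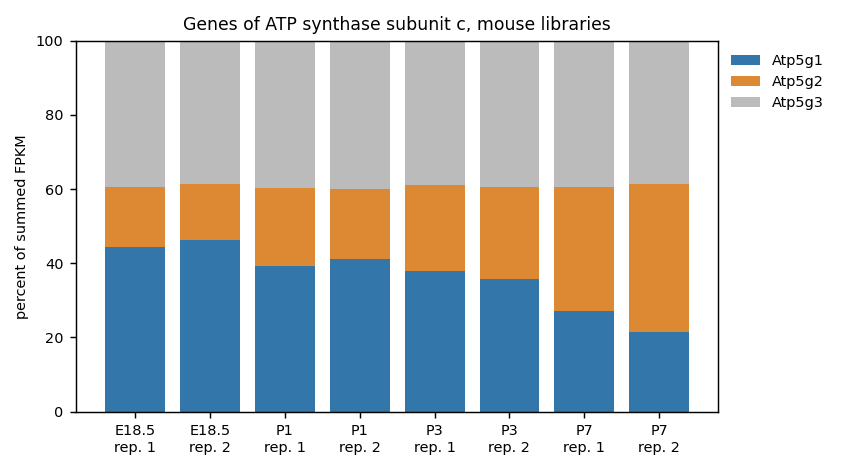
Percent of the summed FPKM of Atp5g1, Atp5g2 and Atp5g3 (y axis) in each of the 8 mouse libraries (x axis). The Atp5g1 share shrinks from 44.4% and 46.4% at E18.5 to 27.2% and 21.6% at P7, the Atp5g2 share grows, and the Atp5g3 share stays between 38.5% and 40%.

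The 13 mitochondrially encoded genes, mt-Nd1, mt-Nd2, mt-Nd3, mt-Nd4, mt-Nd4l, mt-Nd5, mt-Nd6, mt-Cytb, mt-Co1, mt-Co2, mt-Co3, mt-Atp6 and mt-Atp8, are listed at 0 in all mouse libraries, and their rat counterparts are listed at 0 in all rat libraries. These values were read as not measured, and nothing is said of these subunits. The other 3 mouse names that were not kept are Ndufa11b, Ndufs6b and a second listing of Atp5o. In rat, the other names not kept are Ndufs6 and a second listing of Ndufa10l1. The dropped name Ndufb1-ps had 34.6 and 40.8 FPKM at E18.5 and 14.5 and 13.6 at P7. Many members have processed copies elsewhere in the genome, and reads shared with near-identical copies could be split between them.

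Other mitochondrial genes were read from lists outside these names. Over all tested genes, 22.6% fell and 32.6% rose by P7. All 16 tested genes of the tricarboxylic acid cycle and pyruvate dehydrogenase fell by P7, with a median of -1.78, and among them Pdhb, a pyruvate dehydrogenase subunit, fell by 2.73 ± 0.18. Of 12 other complex III and IV subunits, 11 fell, with a median of -1.92. In this list the muscle isoforms Cox6a2 (by 5.41 ± 0.52, from a mean of 831 to 22.7 FPKM) and Cox7a1 (by 4.31 ± 0.27, from 123 to 5.44) fell most. The gene that rose was Cox4i2, the isoform known for induction at low oxygen, by 1.35 ± 0.19 (adjusted p = 0.000526, from 4.44 to 12.9 FPKM). Of 16 genes of electron carriers and coenzyme Q synthesis, 12 fell and 0 rose, with a median of -1.27, most of all Etfdh (by 2.23 ± 0.16) and Coq9 (by 2.20 ± 0.20).

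Lists of genes that build or serve mitochondria had medians nearer 0. Their counts by P7 stand beside the same 22.6% of all tested genes that fell and 32.6% that rose. Of 40 other assembly factors, 20 fell and 1 rose, with a median of -0.36. Cox20 fell most, by 2.18 ± 0.13, and Sdhaf2 rose by 0.65 ± 0.15. Of 15 genes of mitochondrial DNA upkeep and transcription, 5 fell and 1 rose, with a median of -0.35, with Polg2 (fell by 1.5 ± 0.19) and Top1mt (rose by 0.76 ± 0.16) at the ends. Of 16 carriers and import genes, 8 fell and 0 rose, with a median of -0.46. The heart and muscle adenine nucleotide carrier Slc25a4 fell by 2.54 ± 0.16, from a mean of 1580 to 269 FPKM. Of 12 regulators of respiratory genes, 7 fell and 1 rose, with a median of -0.66. The coactivator Ppargc1a fell by 2.82 ± 0.27, from a mean of 9.12 to 0.445 FPKM, and the receptor Esrrg by 2.12 ± 0.25, from 4.44 to 0.231. Nrf1 rose by 0.52 ± 0.16 (adjusted p = 0.0251). The difference between the lists was not tested.

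In the rat cells the question was how the members stood after TSA. None of the 81 members passed the test in either direction, against 3.06% of tested genes that rose and 0.57% that fell, or 1.75% and 0.306% at more than 2-fold. At an unadjusted p under 0.05 there were 8, all higher with TSA, a smaller share than the 20.1% of tested genes in either direction. The members' median log2 fold change was 0.11, against 0.03 over all tested genes, in a range of -0.28 to 1.66. The replicate 3 libraries stood apart. Relative to the DMSO mean, the members' median log2 value was 0.07, 0.05 and -0.12 in the DMSO libraries and 0.00, -0.05 and 0.41 in the TSA libraries, so TSA replicate 3 lay above the other 5. Cardiomyocyte markers summed to 16800, 17800 and 26800 FPKM with DMSO and to 16700, 15000 and 38600 with TSA, and fibroblast markers to 7470, 8140 and 8250 and to 7080, 6790 and 4450. No gene of these 2 lists was at 0. Smooth muscle and pericyte markers summed to 994, 910 and 2410 FPKM with DMSO and to 680, 678 and 1640 with TSA, and macrophage markers to 1020, 1040 and 495 and to 560, 480 and 426. The part of the cell mixture in the replicate 3 libraries was not tested.

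Without both replicate 3 libraries the members' median was -0.08, and 22 of 81 values were above 0. In that fit 5 members were higher and 7 lower, against 12.1% and 7.14% of tested genes. The 5 were Ndufa4l2, Ndufaf7, Uqcr10, Uqcrh and Ndufa6, and the 7 were Ndufs7, Ndufa2, Cox7b, Atp5mc1, Ndufa11, Uqcr11 and Ndufb2. Among the 5, Ndufa4l2 was kept by the filter through the TSA libraries alone. Without DMSO replicate 3 alone, Uqcr10 was the one member that passed (0.49 ± 0.09, adjusted p = 0.036).

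**Figure D5:**
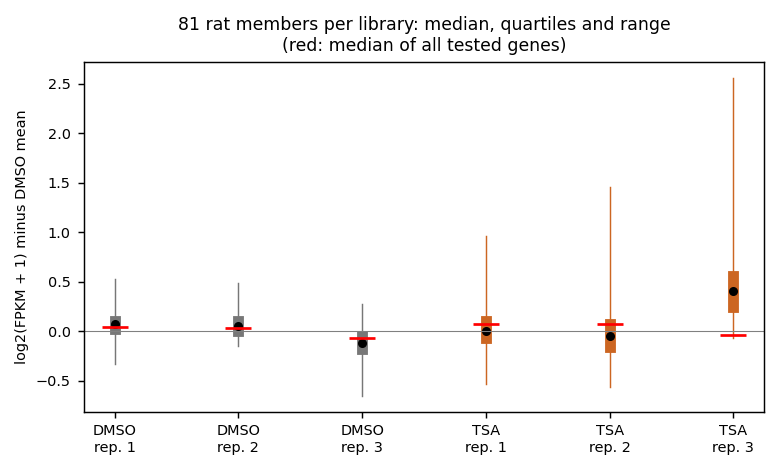
Log2(FPKM + 1) of 81 rat members minus their DMSO mean (y axis) in the 6 libraries (x axis), as median (black point), quartiles (thick bar) and range (thin line), with the median of all tested genes in red. TSA replicate 3 has a median of 0.41, and the other 5 lie between -0.12 and 0.07.

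Ndufa4l2 had the highest log2 fold change of the rat members. Its FPKM was 0.111, 0.182 and 0.412 with DMSO and 1.39, 2.38 and 6.24 with TSA. The groups did not overlap, and the gene was kept through the TSA libraries alone. Its log2 fold change was 1.66 ± 0.39 (adjusted p = 0.0726), and the exact permutation test gave 0.1, the smallest p that 3 libraries against 3 allow. With the replicate number as a block it was the one member under the threshold (1.66 ± 0.28, adjusted p = 0.0486), though no sample title names a pairing. With no expression filter the adjusted p was 0.11. Because the filter kept this gene for its TSA values, its passing in a fit is given as a description.

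Next came Uqcrh, with 349, 330 and 281 FPKM with DMSO and 433, 414 and 535 with TSA (0.52 ± 0.14, adjusted p = 0.0985). Ndufaf7 had 7.46, 7.65 and 8.76 and then 10.7, 10.9 and 13 (0.48 ± 0.12, adjusted p = 0.0895). In both genes all TSA libraries were above all DMSO libraries. At the low end Ndufs7 had 167, 162 and 113 FPKM with DMSO and 114, 108 and 138 with TSA (-0.28 ± 0.18, adjusted p = 0.445), so the groups overlapped. Ndufb2 and Ndufa2 both stood at -0.18 (adjusted p = 0.401 and 0.586).

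The subunits named next ranged from -0.08 to 0.28 on the log2 scale, with the median of all members at 0.11. The log2 fold change was -0.08 ± 0.13 for Atp5f1b, the rat name of Atp5b, and 0.09 ± 0.13 for Atp5f1a. It was 0.02 ± 0.12 for Sdha, 0.11 ± 0.12 for Sdhb, 0.08 ± 0.13 for Ndufs1 and 0.28 ± 0.15 for Ndufv1. For Uqcrc1 and Uqcrfs1 it was 0.20 ± 0.16 and 0.20 ± 0.15, and for Cox5a 0.11 ± 0.14. Ndufa4 stood at 0.04 ± 0.14. The inhibitor Atp5if1, which blocks ATP hydrolysis by the synthase, had 206, 213 and 166 FPKM with DMSO and 226, 212 and 260 with TSA (0.26 ± 0.13, adjusted p = 0.351). None of these values passed the test, and the direction of several turned with a library or scaling.

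For the c subunit, Atp5mc1, the rat name of Atp5g1, made up 26.6%, 26.4% and 22.7% of their summed FPKM with DMSO and 23.9%, 22.7% and 28.8% with TSA, the lowest share of the 3 in every library. Atp5mc2 made up 36.3%, 36.7% and 37.7% with DMSO and 38.3%, 40.8% and 29.1% with TSA. The groups overlapped for both. Their log2 fold changes were 0.07 ± 0.25 and 0.03 ± 0.10, and that of Atp5mc3 was 0.11 ± 0.19. The 2 kept listings of Uqcrb and of Ndufv3 lie on different chromosomes and may share reads.

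By complex, the rat medians lay between 0.04 for complex IV and 0.20 for complex III and for the Ndufaf assembly factors. Of the other mitochondrial lists, those of the tricarboxylic acid cycle, of mitochondrial DNA upkeep, of carriers and of regulators had 0 genes that passed. Cox6b2, known as a testis form of a complex IV subunit, rose by 3.13 ± 0.28 (adjusted p = 0.00567), from a mean of 4.68 to 46.1 FPKM. Cox4i2 rose by 1.17 ± 0.21 (adjusted p = 0.0368), Cmc1 by 1.09 ± 0.18 (adjusted p = 0.0298) and Etfb by 0.86 ± 0.14 (adjusted p = 0.0261).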

How the data were processed

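The authors aligned poly-A reads of 150 bases with HISAT2 2.1.0 and, per the file headers, ran StringTie (1.3.5 for mouse, 1.3.4d for rat) against GENCODE vM21 on mm10 and Ensembl 103 on Rnor_6.0. The deposited values used are FPKM, normalized by the authors for transcript length and aligned reads, and TPM. The deposited ATAC-seq peak lists hold the score, the fold enrichment (a ratio over background), the −log10 p and the −log10 q that MACS2 gave the authors for each library, after duplicate and blacklist removal. FPKM was summed over the transcripts of a gene. Genes with FPKM of at least 1 in 2 libraries were tested with limma 3.58.1 in R 4.3.3 (lmFit, contrasts.fit, eBayes with trend) on log2(FPKM + 1), two-sided, with Benjamini-Hochberg adjustment. All 8 mouse libraries were in 1 fit. The fit was tested on simulated data. Depth was worked out from coverage and FPKM. Deviations of same-numbered rat libraries had correlations of 0.192, 0.175 and 0.35, and those of different-numbered ones ran from -0.268 to 0.183. No sample title names a pairing, so the replicate block is given as an alternative only.

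The members and lists were chosen with earlier results of these data known. Named genes were catalytic members and others at or near the core, the paralogs and Atp5if1 where listed. The largest changes in either direction among all members, by complex and by list, were named too. Some genes that this rule takes in are not reported here. Added after seeing the data were the fits without both P7 libraries and without both rat replicate 3 libraries. HiChIP libraries were not analysed here.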

Additional observations from a re-analysis of the deposited data

How the results depend on the processing

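Under the alternatives run, 0 members rose against E18.5 at P1 or P3, and 71 to 76 fell by P3 and 77 to 79 by P7 with each library left out. Where an arm then held 1 library, it was assumed to vary like the other groups. Counts with a library left out, and counts past 2-fold under an alternative, are not set against all tested genes here. They do not compare members with other genes. Members more than 2-fold lower at P1 (17) numbered 1 with TPM, 35 with median-of-ratios factors, 5 with a total without globin and mitochondrially encoded genes, and 6 to 38 with a library left out, and those lower at all 46 to 73. At P3, 35 were past 2-fold with TPM. For P7 against E18.5, 1 member rose, more than 2-fold, with only the 4 libraries compared, and 0 to 1 with a library left out. For P7 against P1, 0 rose, also at 2-fold, with no expression filter or only the 4 libraries compared, and 0 to 1 with a library left out, when 38 to 70 fell, 23 to 46 of them past 2-fold. In rat, 1 member was past the threshold, more than 2-fold higher, with a pseudocount of 0.1 or with the replicate block. It was Ndufa4l2, which the filter kept through the TSA libraries alone. With a library left out 0 to 1 rose. Without both replicate 3 libraries 5 were higher, 1 of them past 2-fold, and 7 lower, with a median of -0.08. Without a promoter peak were 2 members at 1 kb, 8 with lists of equal length and 1 to 2 with a library left out, and 26 to 45 then had one in all the others. These peak counts are not set against all tested genes. Mouse replicate numbers did not pair the libraries (correlations -0.096 to 0.171). With the number as a block, 72, 76 and 79 members fell by P1, P3 and P7, against 14%, 17.6% and 22.3% of tested genes. In that fit Ndufa4l2 passed at P1 (-2.11, adjusted p = 0.0245). Log2 fold changes near 0 turned sign. Among the members named with values these were Ndufaf5 (0.03) and Atp5s (0.02) at P1 with TPM, and Ndufaf2 with median-of-ratios factors (-0.11 at P1, -0.02 at P7). With a library left out, Ndufaf2 lay between -0.17 and 0.23 at P1 (-0.08 without the first P1 library) and between -0.11 and 0.29 at P7 (-0.10 without the second P7 library), and Atp5s between -0.41 and 0.03 at P1. In rat, Ndufa4, Sdha and Atp5mc2 took -0.03, -0.05 and -0.04 with TPM and with the reduced total, and -0.01, -0.03 and -0.02 with median-of-ratios factors. With a rat library left out the median lay between -0.03 and 0.24, Atp5mc3 between -0.10 and 0.27, Ndufa4 between -0.06 and 0.16, Atp5mc1 between -0.18 and 0.25, Sdhb between -0.01 and 0.18, Ndufs1 between -0.05 and 0.15, Sdha between -0.08 and 0.09, Atp5mc2 between -0.03 and 0.08, Atp5f1a between -0.02 and 0.17 and Cox5a between -0.03 and 0.20, with the values below 0 in the fits without DMSO or TSA replicate 3. Without both replicate 3 libraries, Atp5mc3, Ndufa4, Atp5mc1, Sdhb, Ndufs1 and Sdha took -0.14, -0.12, -0.33, -0.04, -0.07 and -0.14, and Atp5mc2, Atp5f1a, Uqcrfs1, Cox5a and Uqcrc1 took -0.03, -0.07, -0.02, -0.05 and -0.01. The cause of these changes was not tested. FPKM without counts gives no counting error per gene.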
